A study of Mus musculus with 2 samples.

Results

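A set of 9 complement genes was followed in bone marrow-derived macrophages with and without the gene for TIPE1. The 9 genes were taken by symbol from a table of 46095 genes, as 6 components (C1qa, C1qb, C1qc, C3, C4b and Cfb) and 3 regulators (Cfp, Cd55 and Cd59a). They were chosen with results of this comparison known, so their values are a description. The 1 TIPE1-KO sample was made from C57BL/6 mice with floxed Tipe1 alleles and LyzM-Cre, a Cre recombinase under the lysozyme M promoter of myeloid cells, and its genotype label is TIPE1-/-. The 1 WT sample was made from C57BL/6 mice labelled wild type, and the series' design text gives their alleles as Tipe1f/f with no Cre. Both cultures were grown from femur and tibia marrow in 100 ng/ml of macrophage colony-stimulating factor for 5 days. LyzM-Cre acts in granulocytes and monocytes as well as in macrophages, and it leaves non-myeloid cells of a marrow culture undeleted. The age and sex of the mice, and any pooling of mice are not stated in the labels.

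Complement is a cascade of plasma and cell-surface proteins that tags particles for uptake and can open pores in membranes. C1q starts the classical pathway, C3 is the protein on which all pathways meet, and factor B and properdin drive the alternative pathway that amplifies C3 cleavage. Host cells hold the cascade back with membrane proteins such as CD55 and CD59. Macrophages are a main source of C1q, and they also make C3, factor B and properdin.

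Each genotype gave 1 sequencing library, called the KO sample and the WT sample, so there was no replicate and no test. Levels are read counts scaled to 1000000 reads (CPM) on an effective library size, and each ratio is the CPM of the KO sample over that of the WT sample. The 95% interval after a ratio covers counting error only, and says nothing of how far 2 cultures of the same genotype differ. A gene was counted as higher or lower when the ratio was at least 1.5-fold and its interval excluded 1. By that rule 808 of 12495 tested genes, 6.47%, were higher in the KO sample and 904, 7.23%, were lower. Of the 9 complement genes, 8 reached the mean of 1 CPM required of a tested gene. C3, Cfb and Cd55 were counted as higher, 0 as lower, and C1qa, C1qb, C1qc, Cfp and Cd59a as neither, while C4b was under the limit. The median log2 ratio of those 8 was 0.22, beside 0.01 over all tested genes, and nothing is read from it since the members were chosen from this contrast. The KO sample held 15815956 counted reads and the WT sample 11782664. The targeted gene, Tnfaip8l1, had 3 reads in the KO sample and 21 in the WT sample, a low level in both. The exons that Cre removes are not stated in the labels, so reads from the remaining exons are no check of it.

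**Figure D1:**
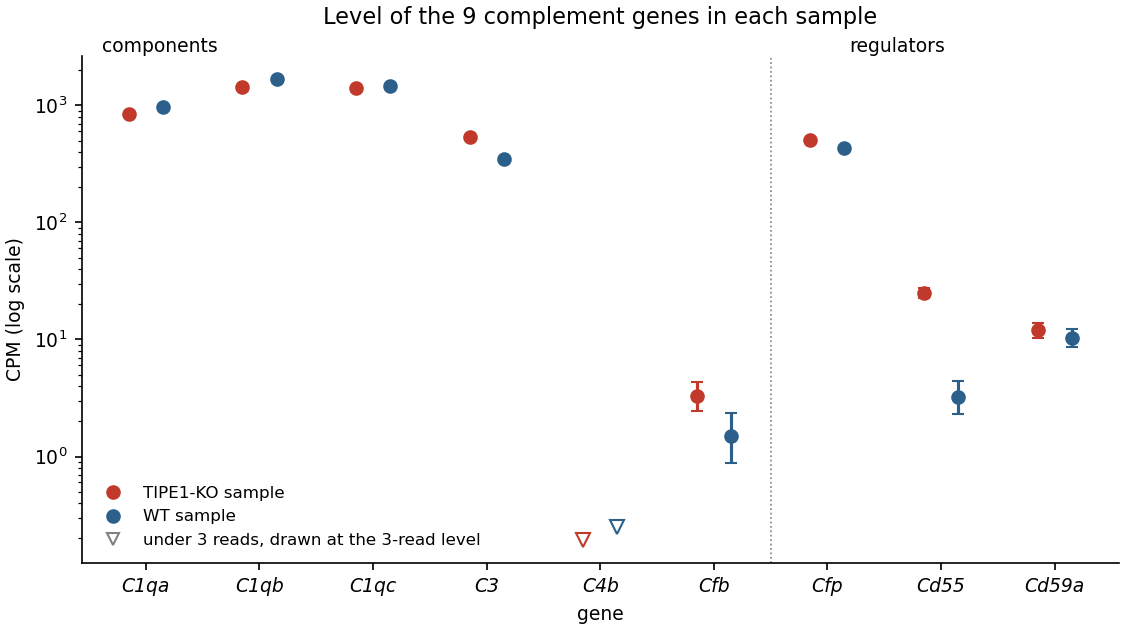
Level of each complement gene in CPM (log axis) in the TIPE1-KO sample and the WT sample, with exact Poisson 95% intervals for counting error and n = 1 library each. The C1q genes lie between 848 and 1673 CPM over both samples, Cd55 lies at 24.9 CPM in the KO sample against 3.23 CPM in the WT sample, and C4b is under 3 reads in both.

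The C1q genes were the most abundant of the set and differed little between the samples. C1qa, C1qb and C1qc encode the chains of a single protein, each with a collagen-like stalk and a globular head that binds antibody and damaged cells. They lie side by side on the minus strand of GRCm38 chromosome 4, within 18.7 kb. C1qa spans positions 136895917 to 136898803, C1qc 136889804 to 136893065 and C1qb 136880129 to 136886187. C1qb had 22233 reads in the KO sample and 20204 in the WT sample, or 1441 CPM in KO and 1673 CPM in WT. It was the gene with rank 52 by CPM in the KO sample and rank 34 in the WT sample. C1qc had 21528 reads in the KO sample and 17738 in the WT sample, or 1395 CPM in KO and 1469 CPM in WT. C1qa had 13086 reads in the KO sample and 11776 in the WT sample, or 848 CPM in KO and 975 CPM in WT. Each chain was thus somewhat lower on the CPM scale in the KO sample. The ratios were 0.861 (0.845 to 0.878) for C1qb, 0.870 (0.848 to 0.892) for C1qa and 0.950 (0.931 to 0.969) for C1qc. Among the log2 ratios of all tested genes these 3 sat at percentiles 21.7, 23.0 and 36.8, where the lower quartile of the table is -0.18. The intervals are narrow because at least 11776 reads stand behind each value, and none of the ratios came near 1.5-fold.

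The proportion of the chains differed slightly between the samples. C1qc took 37.9% (37.5 to 38.3, exact Clopper-Pearson) of the reads on the 3 genes in the KO sample and 35.7% (35.3 to 36.1) in the WT sample. C1qb took 39.1% (38.7 to 39.5) in the KO sample and 40.6% (40.2 to 41.1) in the WT sample. C1qa took 23.0% (22.7 to 23.4) in the KO sample and 23.7% (23.3 to 24.1) in the WT sample. The counting intervals of C1qb and C1qc do not overlap between the samples and those of C1qa do. With 56847 reads on the 3 genes in the KO sample and 49718 in the WT sample, small differences separate such intervals. The 3 shares make up a whole, so a larger share of C1qc means less for the others. The differences are not separate results. With no replicate, the usual variation of these shares between cultures is unknown. Per kilobase of annotated exon, C1qb stood at 1324 CPM in the KO sample and 1538 in the WT sample, the highest of the 3. C1qa stood at 816 CPM per kilobase in the KO sample and 937 in the WT sample, and C1qc at 723 in KO and 761 in WT. The order of C1qa and C1qc depended on the length used: per kilobase of the longest transcript, C1qc stood at 1160 CPM in the KO sample and 1221 in the WT sample, above C1qa in both. C1qb led under both lengths.

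**Figure D2:**
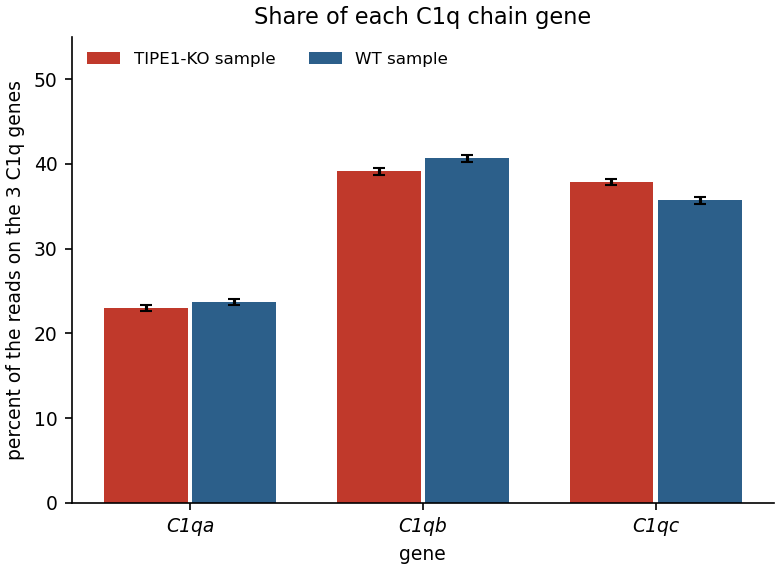
Percent of the reads on C1qa, C1qb and C1qc that fell on each gene, in the TIPE1-KO sample and the WT sample, with exact Clopper-Pearson 95% intervals (1 library each, 56847 reads in KO and 49718 in WT). C1qc holds 37.9% in the KO sample against 35.7% in the WT sample, and C1qb 39.1% in the KO sample against 40.6% in the WT sample.

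The upstream sequences of the paired C1qb and C1qc genes are shown because the genes are neighbours and both highly expressed here. Each line gives the 250 bases before the RefSeq transcription start (GRCm38.p6, minus strand), at chr4:136886201-136886450 for C1qb and chr4:136892915-136893164 for C1qc. Capitals mark matches to any of the motifs searched on both strands.
C1qb: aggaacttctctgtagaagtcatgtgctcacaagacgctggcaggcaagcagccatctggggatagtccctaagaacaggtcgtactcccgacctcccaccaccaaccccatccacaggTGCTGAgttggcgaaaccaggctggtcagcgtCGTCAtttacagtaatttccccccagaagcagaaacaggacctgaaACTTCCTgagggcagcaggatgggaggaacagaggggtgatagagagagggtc
C1qc: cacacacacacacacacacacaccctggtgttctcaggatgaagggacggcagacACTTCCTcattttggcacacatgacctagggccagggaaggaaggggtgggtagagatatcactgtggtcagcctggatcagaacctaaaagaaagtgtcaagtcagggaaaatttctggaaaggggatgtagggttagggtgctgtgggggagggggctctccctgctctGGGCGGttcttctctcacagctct
Both windows hold AGGAAGT, a core bound by PU.1, the lineage factor of macrophages, written on the other strand as ACTTCCT. The match begins 53 bases before the RefSeq start in C1qb and 195 bases before it in C1qc. The GENCODE gene models used for the positions above start elsewhere. The GENCODE start of C1qc lies inside the window, so that 151 of its 250 bases, the GC box among them, belong to the GENCODE gene and the PU.1 match begins 44 bases before that start. The C1qb window lies outside the GENCODE gene, whose start puts the match 66 bases upstream. The same letters occur in 7.69% of 32851 windows of equal length in the RefSeq table. The windows before C3, Cfp, Cd55 and Cd59a had no match to them. C1qb also has TGCTGA, the core of a Maf recognition element, found in 16.1% of windows, and the cAMP response element core TGACG, found in 17.8%. C1qc has the GC box GGGCGG, found in 32.7%.

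C3 was higher in the KO sample by a margin that just met the fold limit. C3 is cleaved into C3b, which coats particles for uptake, and C3a, a small attractant for leukocytes. It had 8217 reads in the KO sample and 4221 in the WT sample, or 533 CPM in KO and 349 CPM in WT, a ratio of 1.52 (1.47 to 1.58). The lower bound lies under 1.5, and with total counts in place of effective library sizes the ratio was 1.45 and C3 was not counted as higher. Of all tested genes, its log2 ratio of 0.61 sat at percentile 93.8. Per kilobase of exon C3 stood at 104 CPM in the KO sample and 68.0 CPM in the WT sample, well under each C1q chain. C3 (chromosome 17, 57203970 to 57228136) lies 1.03 Mb from Tnfaip8l1, the targeted gene at 56162477 to 56173955. Within 2 Mb of Tnfaip8l1, 5 of 47 tested genes, C3 among them, were higher and 4 lower, with a median log2 ratio of -0.03. Over all tested genes, 6.47% were higher and 7.23% lower. Of the tested genes closest to C3, none was counted as higher. Gpr108, Trip10 and Vav1 on its right had ratios of 1.12, 0.978 and 1.04, and Tnfsf14 on its left had 12 reads in the KO sample against 39 in the WT sample, a ratio of 0.241.

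The 250 bases before the C3 start (GRCm38.p6, chr17:57228137-57228386, minus strand) are given because C3 was the abundant component that was counted as higher.
C3: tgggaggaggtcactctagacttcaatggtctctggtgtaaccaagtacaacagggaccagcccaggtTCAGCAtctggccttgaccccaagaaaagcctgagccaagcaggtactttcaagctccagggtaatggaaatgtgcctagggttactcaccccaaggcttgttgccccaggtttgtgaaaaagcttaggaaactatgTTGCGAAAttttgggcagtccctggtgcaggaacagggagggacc
The capitals at TTGCGAAA match TTGCNNAA, a core bound by C/EBP factors, 45 bases before the start. That motif occurs in 9.56% of all windows. TCAGCA is the Maf core read on the other strand. The AP-1 motif TGANTCA, held by 6.75% of windows, had no match before C1qb, C1qc, C3 or Cd55. The windows before Cfp and Cd59a, whose sequences are not printed, had no match to any motif searched.

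Cfb and C4b could not be read as levels. Cfb encodes factor B, the protease of the alternative C3 convertase, and C4b encodes C4, which the classical pathway splits to build its own convertase. Cfb had 51 reads in the KO sample and 18 in the WT sample, or 3.31 CPM in KO and 1.49 CPM in WT, a ratio of 2.22 (1.27 to 4.03), and was counted as higher. The tested gene closest to Cfb, Skiv2l (6.16 kb away), was also counted as higher, with 25 reads in the KO sample and 7 in the WT sample, a ratio of 2.80 (1.18 to 7.66). Ehmt2 on the other side had 43 reads in the KO sample and 26 in the WT sample, a ratio of 1.29 that was not counted. C4b had 0 reads in the KO sample and 2 in the WT sample, both under the 3 reads taken as the detection limit, so no ratio is given. That limit is 0.194 CPM in the KO sample and 0.248 CPM in the WT sample. The genes lie in the major histocompatibility complex region of chromosome 17, Cfb at 34856374 to 34862518 and C4b at 34728380 to 34743882, and much of that region was listed at 0 in both samples. Within 1 Mb of Cfb, 53 of 113 protein-coding genes, 46.9%, had 0 reads in both, and 23.0% were tested. Over all 20638 matched protein-coding genes, 30.4% had 0 reads in both and 52.8% were tested. The genes at 0 included many that nearly every cell uses. Csnk2b, Ddx39b, Lsm2, Bag6, Clic1, H2-D1, Prrc2a and Abhd16a, named after their values were seen, all had 0 reads in both samples. A count of 0 or near 0 in this region is therefore not read as absence of the RNA, and the reason for the missing reads was not tested.

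Annotation adds a second limit for Cfb and C4b. Of the exonic bases of Cfb, 79.5% are shared on the same strand with Gm20547, a gene model that runs through Cfb and C2, and 73.0% of the 50-base words of Cfb transcripts occur in other genes. For C4b that share was 34.6%, all of it in C4a, a near copy that was listed at 0 in both samples. C1qa, C1qb, C1qc, C3 and Cfp had no 50-base word in another gene. Around those 5 genes, and around Cd55 and Cd59a, the share of protein-coding genes listed at 0 within 1 Mb ran from 8 of 47 (C3) to 6 of 20 (Cd55), not above the share over all genes. The share was not high only in the histocompatibility region: of the complement genes described further on, it was 58.8% around Serping1, 9 of 16 genes around Cd93 and 48.1% around Itgb2. A high share alone does not tell lost reads from genes without RNA, and which holds there was not tested.

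**Figure D3:**
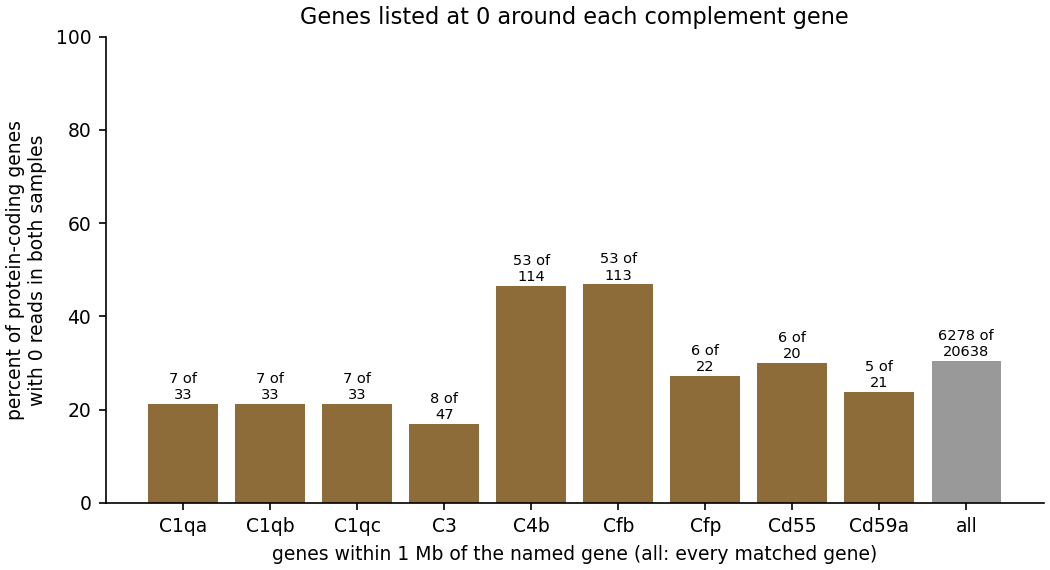
Percent of protein-coding genes with 0 reads in both samples within 1 Mb of each complement gene, and over every matched protein-coding gene (grey, 30.4%). Windows around neighbouring genes overlap, as for the C1q genes and for C4b and Cfb. C4b and Cfb, at 46.5% and 46.9%, have the highest shares of the 9 genes.

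Cfp, the gene for properdin, was abundant and nearly level. Properdin is the regulator that stabilises the alternative C3 convertase, so that unlike CD55 and CD59 it promotes the cascade. It had 7848 reads in the KO sample and 5212 in the WT sample, or 509 CPM in KO and 432 CPM in WT, a ratio of 1.18 (1.14 to 1.22). The interval excluded 1, but the ratio fell short of 1.5-fold. Cfp lies on chromosome X at 20925454 to 20931555. Its neighbour Elk1 had a ratio of 1.10 and Syn1 1.40, whereas Timp1, an inhibitor of matrix proteases, was lower at 38 reads in the KO sample against 366 in the WT sample.

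Cd55 had the largest ratio of the 9 genes. It encodes decay-accelerating factor, a membrane-anchored protein that breaks up C3 convertases on host cells. It had 384 reads in the KO sample and 39 in the WT sample, or 24.9 CPM in KO and 3.23 CPM in WT, a ratio of 7.71 (5.54 to 11.0). Its log2 ratio of 2.77 sat at percentile 99.9 of the tested genes. With 2 CPM added in place of 0.5 the log2 ratio was 2.36. Part of the gene has a close copy: 9.12% of its 50-base words occur in other genes, chiefly Cd55b, which lies 16018 bases away. Cd55b had 3 reads in the KO sample and 0 in the WT sample. Cd55 (chromosome 1, 130439027 to 130462744, minus strand) differed from its tested neighbours. Pfkfb2 and Yod1 had ratios of 0.957 and 0.996, Cxcr4, 1847 kb away, had 0.321 and Fcmr 0.213.

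The 250 bases before the Cd55 start (GRCm38.p6, chr1:130462745-130462994, minus strand) follow because Cd55 carried the largest difference.
Cd55: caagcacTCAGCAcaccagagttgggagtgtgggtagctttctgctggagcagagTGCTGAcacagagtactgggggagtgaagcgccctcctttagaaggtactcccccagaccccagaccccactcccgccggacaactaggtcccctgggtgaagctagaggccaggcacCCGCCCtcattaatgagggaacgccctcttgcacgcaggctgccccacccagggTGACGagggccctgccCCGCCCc
GC made up 64.0% of these bases, against 52.0% for C3, 55.2% for C1qb and 54.0% for C1qc. The window held 2 GC boxes, read here as CCGCCC, 2 Maf cores and the cAMP response element core TGACG 23 bases before the start. It had no match to the PU.1 or C/EBP motif. These matches describe letters only, and binding was not measured.

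Cd59a, the other membrane inhibitor, did not separate from 1. It encodes the protein that blocks the last step of pore formation. Cd59a had 185 reads in the KO sample and 125 in the WT sample, or 12.0 CPM in KO and 10.3 CPM in WT, a ratio of 1.16 (0.918 to 1.47). The interval lies on both sides of 1, so no difference was detectable at this depth. Cd59a lies on chromosome 2 at 104095801 to 104115354. Its close copy Cd59b, 4614 bases away, had 6 reads in the KO sample and 2 in the WT sample, and 3.87% of the 50-base words of Cd59a occur there. Per kilobase of exon, Cd59a stood at 6.62 CPM in the KO sample and 5.71 CPM in the WT sample, and Cd55 at 5.13 CPM in KO and 0.665 CPM in WT. In the WT sample Cd59a was the more abundant inhibitor under either length. In the KO sample the order turned on the length, since per kilobase of the longest transcript Cd55 stood at 7.94 CPM and Cd59a at 6.64 CPM.

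**Figure D4:**
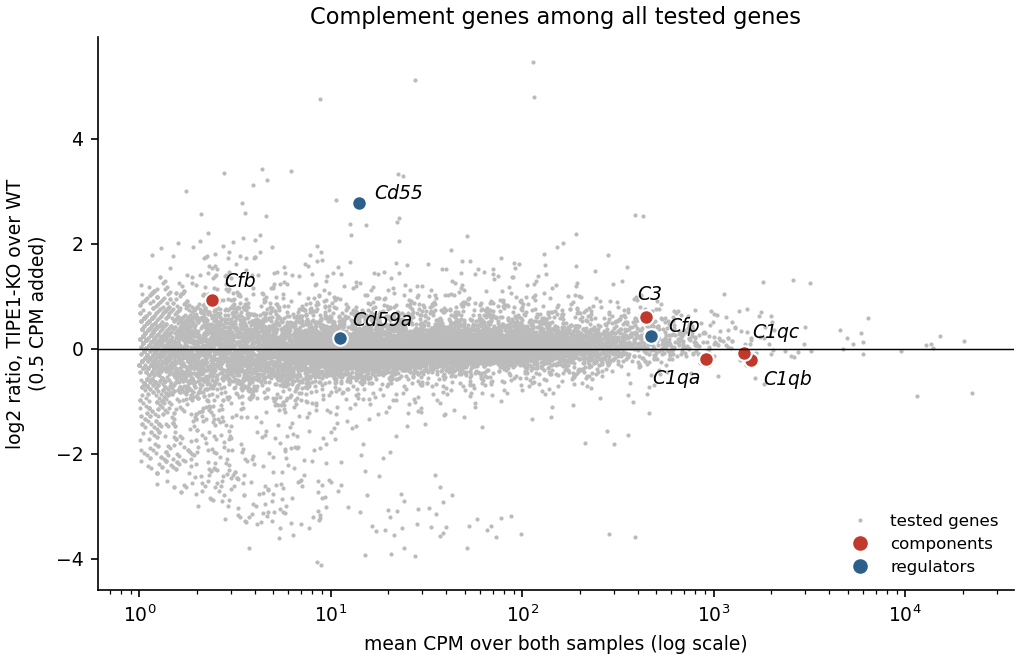
Log2 ratio of the TIPE1-KO over the WT sample (0.5 CPM added to both) against the mean CPM (log axis) for 12495 tested genes in grey, with the 5 tested components and the 3 regulators marked. Cd55 lies at 2.77, Cfb at 0.94 and C3 at 0.61, and the C1q genes lie between -0.22 and -0.07.

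No gene of either class was counted as lower. Medians and sums by class are given as a description, and nothing is read from them since the members were chosen from this contrast. Of the 5 tested components, C3 and Cfb were higher and the C1q genes were neither. The median log2 ratio of the 5 was -0.07, the value of C1qc. Of the 3 regulators, Cd55 was higher and Cfp and Cd59a were neither. The median of the 3 was 0.24, the value of Cfp, which promotes the cascade. Summed over the 6 components, expression was 4220 CPM in the KO sample and 4468 CPM in the WT sample, most of it C1q. Summed over the 3 regulators it was 546 CPM in the KO sample and 445 CPM in the WT sample, most of it Cfp. Cd55 gave 24.9 CPM of that sum in the KO sample and 3.23 CPM in the WT sample.

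The wider complement list held 53 genes, the 9 included, and 28 of them were tested. It gave 6 higher and 5 lower genes and 17 that were neither, with a median log2 ratio of -0.0047. Without the 9 genes, 20 of 44 were tested, with 3 higher and 5 lower, where 6.47% and 7.23% of all tested genes were counted in those directions. Another 22 of the 44 had at most 3 reads in each sample, among them 13 with 0 in both, most of them products of liver such as the terminal pore components C8a, C8b and C9. C2 and C4a, also among the 22, lie near Cfb in the histocompatibility region. Their counts are not read as absence of the RNA either.

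**Figure D5:**
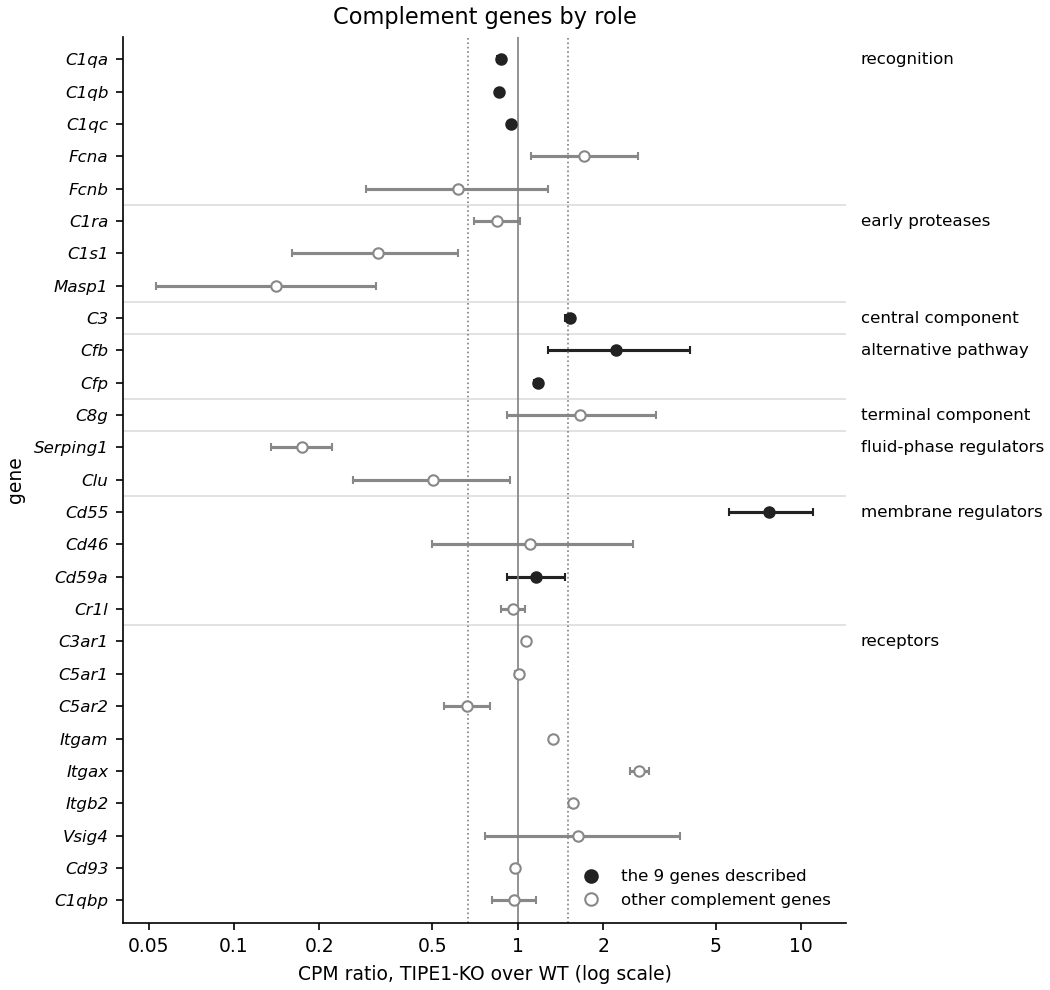
CPM ratio of the TIPE1-KO over the WT sample (log axis) with 95% counting intervals for 27 of the 28 tested complement genes grouped by role. Filled points are the tested genes among the 9 described, open points the others, and dotted lines mark 1.5-fold. Serping1, Masp1 and C1s1 lie left of the lines at 0.174, 0.141 and 0.322, and Cd55, Itgax and Cfb right of them at 7.71, 2.68 and 2.22.

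Early proteases and fluid-phase regulators held 4 of the 5 lower genes. In each of these roles 3 genes were tested and 2 were lower, where 7.23% of all tested genes were lower. Serping1, which encodes the C1 inhibitor, had 82 reads in the KO sample and 369 in the WT sample, a ratio of 0.174 (0.135 to 0.222). C1s1, a protease of the classical pathway, had 14 reads in the KO sample and 34 in the WT sample, a ratio of 0.322 (0.160 to 0.617). C1ra, the protease that cleaves C1s and the tested early protease with the most reads, was neither, with 240 reads in the KO sample and 222 in the WT sample, a ratio of 0.846 (0.702 to 1.02). Masp1, a protease of the lectin pathway, had 7 reads in the KO sample and 39 in the WT sample, a ratio of 0.141 (0.0530 to 0.318). Clu, the gene for clusterin, which binds terminal complexes, had 18 reads in the KO sample and 28 in the WT sample, a ratio of 0.503 (0.262 to 0.942).

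Stromal markers moved in the same direction as these genes. The marker counts that follow stand beside 6.47% higher and 7.23% lower over all tested genes. Of 16 stromal markers 15 were lower in the KO sample, and their summed level was 292 CPM there against 2279 CPM in the WT sample. Per gene they ranged from 1.23 to 102 CPM in the KO sample and from 3.23 to 714 CPM in the WT sample, and none was at 0. Col1a1, the most abundant, stood at 58.9 CPM in the KO sample against 714 CPM in the WT sample. In bulk RNA, fewer cells of a type and less RNA per cell cannot be told apart, and the part of stromal RNA in Serping1, C1s1, Masp1 and Clu was not tested. Macrophage markers were mostly level, with 1 of 10 higher (Adgre1) and 1 lower, and sums of 17728 CPM in the KO sample and 16422 CPM in the WT sample. Monocyte markers had 3 of 5 lower, with 249 CPM in the KO sample against 615 CPM in the WT sample. Neutrophils also express Cfp and Cd55. Neutrophil markers had 4 of 9 tested lower, with 505 CPM in the KO sample against 705 CPM in the WT sample, and the part of neutrophil RNA in Cfp and Cd55 was not tested. B cell markers had 4 of 4 tested lower, with 2.40 CPM in the KO sample against 12.7 CPM in the WT sample. Endothelial markers had 1 higher (Vwf) and 1 lower (Cdh5) of 4 tested, and platelet markers 1 lower (Itga2b) of 2. T and NK markers had 2 higher (Cd4 and Cd8a) of 5. The T cell receptor genes Cd3e and Cd3g were neither, with ratios of 0.783 and 0.992, as was Nkg7 at 1.20. None of 5 dendritic markers was tested. Counts in such short lists are not read as a difference in cell types.

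Receptors for complement fragments were the most abundant group outside the 9 genes. C3ar1, the C3a receptor, stood at 2004 CPM in the KO sample and 1874 CPM in the WT sample, a ratio of 1.07 (1.05 to 1.09). C5ar1, the signalling C5a receptor, stood at 615 CPM in the KO sample and 607 CPM in the WT sample, and Cd93, a surface protein first described as a C1q receptor, at 919 CPM in the KO sample and 937 CPM in the WT sample. The integrin subunits of the iC3b receptors were above 1. Itgb2, the shared beta subunit, had a ratio of 1.56 (1.52 to 1.60), Itgax, the alpha subunit of CR4, 2.68 (2.49 to 2.90) and Itgam, the alpha subunit of CR3, 1.33 (1.31 to 1.36), the last not counted. Itgb2 was at 1.49 with total counts and then not counted either. Of the exonic bases of Itgam, 68.7% are shared with the overlapping model Gm49368. C5ar2, a second C5a receptor, was lower with 213 reads in the KO sample and 251 in the WT sample, a ratio of 0.664 (0.551 to 0.801) that sat at the limit. Among membrane regulators, Cr1l, which encodes the rodent convertase inhibitor Crry, stood at 58.1 CPM in the KO sample and 60.4 CPM in the WT sample, a ratio of 0.962 (0.871 to 1.06). Per kilobase of exon that is 5.62 CPM in the KO sample and 5.84 CPM in the WT sample, beside 5.13 CPM in KO and 0.665 CPM in WT for Cd55. These values rest on annotated exon lengths of 10349 bases for Cr1l and 4853 for Cd55. Cr1l was not scaled to its longest transcript, so the order of Cr1l and Cd55 in the KO sample is not settled. Fcna, a ficolin that starts the lectin pathway, had 72 reads in the KO sample and 33 in the WT sample, a ratio of 1.71 (1.12 to 2.66). Antisense models overlap 6.55% of the exonic bases of Fcna, 18.4% of those of C1s1 and 2.10% of those of Cd55, and reads of either strand cannot be told apart where counting ignored strand.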

How the data were processed

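Total RNA of 2 macrophage cultures, 1 per genotype, was sequenced. The deposited values are raw read counts per gene symbol in 1 table, per the file headers. The submitters' processing notes name HISAT2 and GRCm38. How reads were counted, with which annotation, strand setting and filters, was not given in the sources used here.

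Counts were scaled to 1000000 reads (CPM) on effective library sizes from TMM, in edgeR 4.0.16 under R 4.3.3. Log2 ratios used 0.5 CPM added to both values. A gene was tested where its mean reached 1 CPM. Intervals are exact Clopper-Pearson 95% intervals of the split of reads between the samples (scipy 1.17.1). Without molecular identifiers, PCR copies count as separate reads, so intervals and the limit of 3 reads cover counting error only. No p-value was computed, since 1 library per group leaves no residual degrees of freedom. The calculation was tested on simulated data.

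The members, lists and alternatives were chosen with earlier results of these data known. Beyond the 9 genes, the text names list genes that were counted as higher or lower or had a mean of at least 20 CPM, and other genes after their values were seen. A few genes that enter the list counts are not reported here by name. Positions, exon lengths, overlaps and 50-base words came from GENCODE M21 (GRCm38), in which 33980 of 46095 symbols matched. Promoters came from RefSeq (GRCm38.p6), with 6 of the 9 genes matched. Neighbours are the 3 tested genes on each side.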

Additional observations from a re-analysis of the deposited data

How the results depend on the processing

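No paired analysis was possible because the samples share no replicate number beyond the single library of each genotype. Of 114 recomputed values, 94 stayed within the limit set for their kind and 20 moved further. That limit was the counting interval for a ratio or level and 1.5 times for a count. For a median it was a fixed log2 difference, which does not track a change of sign. No gene's ratio changed direction. The median log2 ratio over the tested genes of the 9 lay between 0.15 and 0.23. Those of the complement list and of all tested genes lay near 0 and changed sign: the first was 0.0042 under median-of-ratios scaling, and the second -0.06 with total counts and -0.01 without a filter. With total counts in place of effective library sizes the ratios were 0.828 for C1qa, 0.820 for C1qb, 0.904 for C1qc, 1.45 for C3 and 1.12 for Cfp, and C3 was no longer counted. Median-of-ratios scaling, and TMM without the stromal markers, kept the calls of the 8 tested genes among the 9, and C5ar2 was not counted under median-of-ratios scaling, at 0.668. With a mean of at least 10 CPM, 412 genes were higher and 223 lower of 8379, 2 of the complement list were lower, and Cfb was not tested. With a limit of 2-fold, 323 genes were higher and 597 lower, and the complement list gave 3 higher and 3 lower, with C3 no longer counted. The settings for the 9 genes as a count, for other complement genes and for transcript length were chosen after seeing the data. The few reads behind Cfb limit its ratio.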
